A study of Mus musculus with 12 samples.

Results

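The genes described here are 32 genes of sterol synthesis and cholesterol handling, of the 23420 genes in the count table. They were chosen by name, from a list that covers the enzymes leading to squalene, the enzymes leading from squalene to cholesterol, the sterol sensors and their transcription factors, and proteins that move, store or modify cholesterol. One of them, Msmo1, is listed under its older symbol Sc4mol. With them come the 14 BMAL1-bound regions, of 4740 in all, that lie within 10 kb of one of their starts. The 12 libraries come from mouse embryonic fibroblasts on a 129/sv background that lack Per1, Per2, Nr1d1 and Nr1d2 (each -/-) and carry a PER2-ER transgene. In such fusion proteins ER commonly stands for the hormone-binding part of the estrogen receptor, to which 4-OHT binds; its promoter is not given in the labels. Cells received 1 µM 4-hydroxytamoxifen (4-OHT) or 0.1% ethanol (EtOH), for 4 h. The groups were mRNA, BMAL1 chromatin immunoprecipitation (ChIP) and ChIP input after 4-OHT, and the same kinds of library after EtOH, with 2 libraries in each of the 6 groups. The study asked how induced PER2 changes the binding of BMAL1 and the mRNA of the cells. The 4 gene deletions are shared by all groups, and with no 4-OHT-treated cells lacking the transgene among the samples, the action of PER2-ER and of 4-OHT itself cannot be told apart.

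Cholesterol is made from acetyl-CoA through mevalonate, isoprenoid diphosphates, squalene and lanosterol. When membrane sterol is low, SCAP escorts the precursor of SREBP2 out of the endoplasmic reticulum, and the released factor switches on most enzymes of the route. When sterol is ample, INSIG proteins hold SCAP back, and oxysterols signal the same state and activate the LXR receptors that drive cholesterol efflux. BMAL1 pairs with CLOCK on E-box DNA, whose best-known form is CACGTG, and PER proteins repress this pair in the circadian clock. In liver, sterol synthesis is known for a daily rhythm.

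The mRNA libraries held 60267540 to 89695667 counted reads, the BMAL1 libraries 13502201 to 20712373 reads and the inputs 12481308 to 33454366 reads. All 4 deleted genes had reads in every mRNA library, and since the deleted parts are not given, this checks no label. Of 10 fibroblast markers, 8 passed the expression filter, and Thy1 and Lum had no read in any mRNA library. Dcn, among the 8, had only 8 and 18 reads after 4-OHT and 11 and 7 after EtOH. The fibroblast markers summed to 27402 and 29278 counts per 1000000 counted reads (CPM) at the lowest and highest after 4-OHT, against 26842 and 29119 CPM after EtOH. Most of this sum came from Fn1, Col1a1, Col1a2, Col3a1 and Vim. Adipocyte markers summed to 57.9 to 59.1 CPM after 4-OHT and 71.9 to 76.8 CPM after EtOH. All of this came from Fabp4, which was called lower, while Adipoq, Plin1, Cidec and Lep had no reads. Endothelial markers summed to 1.12 to 1.26 CPM after 4-OHT and 2.46 to 2.78 CPM after EtOH, with Kdr called lower and Cdh5 at 0. Epithelial markers summed to 14.6 to 16.7 CPM after 4-OHT and 12.6 to 14.0 CPM after EtOH, most of it from Cdh1, with no gene called. Macrophage and muscle markers stayed at or below 3.43 CPM in every library. The part of these markers in the results below was not tested. In such bulk samples, fewer cells of a kind and less RNA per cell cannot be told apart. The labels do not say that libraries of a group came from separate cultures, and p-values therefore reflect only library-to-library spread, possibly technical.

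BMAL1 regions lay within 10 kb of the start of 12 of the 32 genes, or 37.5%, against 27.1% of the 13197 genes tested for mRNA that have a start. Of the 12, 11 had a region within 1 kb. They were Pmvk and Idi1 on the way to squalene, Lss, Cyp51 and Sc5d on the way from squalene to cholesterol, Insig1, Insig2, Scap and Srebf2 among the sensors and factors, Abca1 among the transporters, and Lpin1 and Fasn outside sterol synthesis proper. The other 20 genes had their nearest region between 12780 bp (Fdft1) and 758489 bp (Dhcr7) from the start. Regions spanned the counted start, taken as the upstream end of the outermost annotated exon, at 8 genes. Idi1, Abca1, Fasn and Insig2 had theirs 63 bp downstream, 89 bp upstream, 372 bp downstream and 4473 bp downstream of the start. Insig1 had a second region 326 bp downstream and Lpin1 a second one 1744 bp upstream. The RefSeq start found for Lpin1 lies further upstream, at -21196 bp from the counted one, and no region overlaps its promoter. Another region lies 29107 bp upstream of the counted Lpin1 start, outside the 10 kb window. The Insig2 region shares 142 bases with the promoter of another RefSeq start of that gene, 4565 bp downstream of the counted one. The regions were 94 to 535 bp long. They were called by the authors on EtOH-treated cells, so their EtOH signal is high by choice and is given only as a description.

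**Figure D1:**
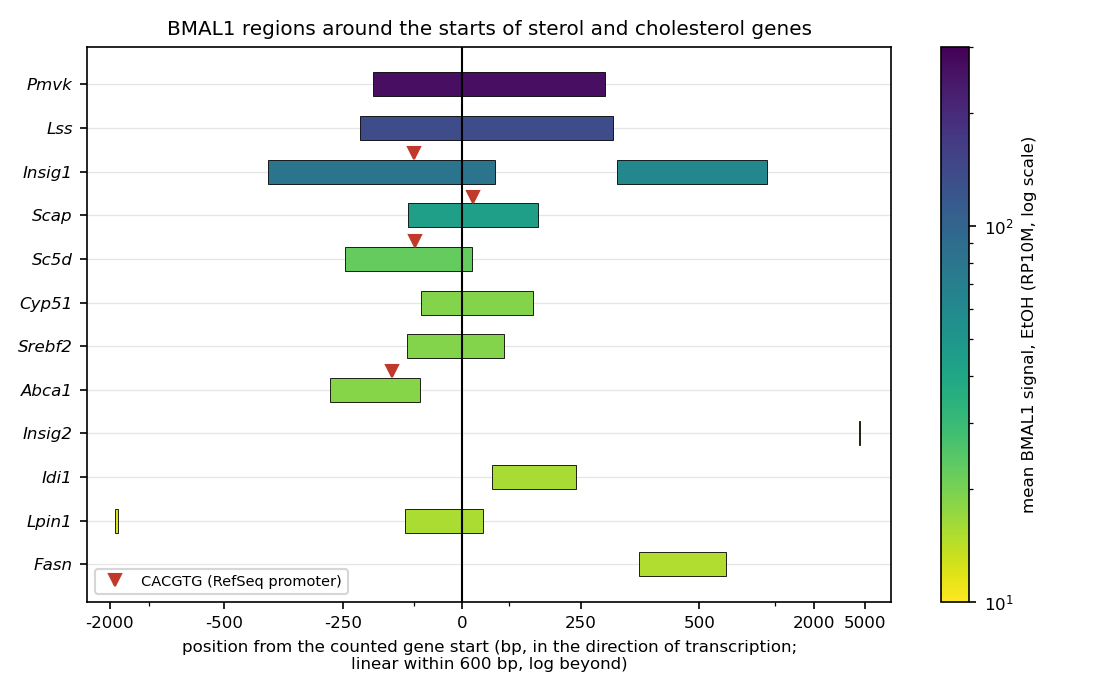
BMAL1 regions of 12 sterol and cholesterol genes, by distance from the counted gene start in bp (linear within 600 bp, log beyond), with transcription running to the right. Colour gives the mean EtOH signal in reads per 10000000 library reads and triangles mark CACGTG in the RefSeq promoter. At 8 genes a region spans the start, and the 4 triangles at Insig1, Scap, Sc5d and Abca1 all lie over a region.

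Promoter sequences (RefSeq, GRCm38.p6, 250 bases before to 50 bases after a start) were found for 26 of the 32 genes, and those of 9 genes overlap a region. CACGTG stands in the promoters of 6 genes. At 4 of them, Insig1, Sc5d, Abca1 and Scap, a region overlaps the promoter, and these 4 sequences are shown because they pair the E-box with measured BMAL1 signal. Capitals mark CACGTG, and each sequence runs 5′ to 3′ on the strand of the gene. Insig1 is at chr5:28071252-28071411 (plus strand), Sc5d at chr9:42264301-42264460 (minus strand) and Abca1 at chr4:53159896-53160055 (minus strand), each being the 160 bases before the start. Scap is at chr9:110333304-110333333 (plus strand), 30 bases within the transcribed part.
Insig1: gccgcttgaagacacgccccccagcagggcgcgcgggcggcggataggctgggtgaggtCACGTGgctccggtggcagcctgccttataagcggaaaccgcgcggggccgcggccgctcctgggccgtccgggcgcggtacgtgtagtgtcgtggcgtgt
Sc5d: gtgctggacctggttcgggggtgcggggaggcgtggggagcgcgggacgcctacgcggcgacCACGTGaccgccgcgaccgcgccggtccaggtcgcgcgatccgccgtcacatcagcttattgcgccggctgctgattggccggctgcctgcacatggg
Abca1: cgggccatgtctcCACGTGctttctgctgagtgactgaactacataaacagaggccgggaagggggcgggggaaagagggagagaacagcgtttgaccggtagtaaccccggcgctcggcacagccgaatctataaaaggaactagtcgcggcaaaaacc
Scap: cgccgccgggagCACGTGtggagggcggcg

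The E-box begins 101 bases before the start of Insig1, 98 before that of Sc5d and 147 before that of Abca1. In Scap it begins 29 bases into the transcript from one RefSeq start and 40 bases before the other. Searched on both strands, CACGTG stands in 7.15% of all 32851 promoters of this length, in 37.9% of the 2307 that overlap a region and in 4.83% of the others. These shares are per promoter. The 26 genes have 34 promoters, and a gene was counted above if any of its promoters held the motif. Hsd17b7 (143 bases before its start) and the second RefSeq start of Dhcr7 (164 bases before it) hold CACGTG with no region within 10 kb. The variant AACGTG, present in 4.68% of all promoters, was found in none of the 26 genes' promoters. Lss, with the second highest signal of these genes, has none of the searched motifs in its promoter. Its sequence is shown here to set beside those above (chr10:76531445-76531604, plus strand, 160 bases before the start). That promoter shares 243 bases with the Lss region of 535 bp, and the rest of the region was not searched. At Pmvk, with the highest signal, a promoter without a motif shares 99 bases with the region of 489 bp. Hmgcs1 has no region within 10 kb, and alone among the 26 holds TCACNCCAC, the sterol-response-element type of letters, in capitals (chr13:119690191-119690350, plus strand, 160 bases before the RefSeq start). That motif stands in 1.24% of all promoters.
Lss: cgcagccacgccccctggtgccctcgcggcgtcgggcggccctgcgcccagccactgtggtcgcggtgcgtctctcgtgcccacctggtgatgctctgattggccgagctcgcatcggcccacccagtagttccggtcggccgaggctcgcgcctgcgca
Hmgcs1: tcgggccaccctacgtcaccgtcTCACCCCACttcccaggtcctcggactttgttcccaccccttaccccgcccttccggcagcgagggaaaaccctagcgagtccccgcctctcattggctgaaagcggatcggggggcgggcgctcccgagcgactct

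BMAL1 signal fell after 4-OHT at all 14 regions, with 93.8% of all 4740 regions called lower and 0% called higher by the same test (edgeR quasi-likelihood test, adjusted p below 0.05, libraries scaled by their totals). Signal is given as reads in the region per 10000000 library reads (RP10M), not corrected for region length. The median over the 14 regions was 6.55 and 7.48 RP10M in the 4-OHT libraries, against 19.6 and 20.4 RP10M in the EtOH libraries. Over all 4740 regions it was 8.01 and 8.21 RP10M in the 4-OHT libraries and 25.2 and 22.7 RP10M in the EtOH libraries. The groups did not overlap in either median, and for the 14 regions the exact two-sided permutation p was 0.333, the smallest that 2 libraries against 2 can give. The median log2 change of the 14 regions was -1.80, or 3.49-fold lower, beside -1.66 for all regions. Single regions ranged from -2.52 at Pmvk to -1.12 at Fasn. Where scaling is set on the regions themselves (TMM factors), the median of all regions moves to 0.02 and that of the 14 to -0.12, with 1 of the 14 called lower. The falls given here are therefore changes relative to library totals.

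On the way to squalene, Pmvk, which adds the second phosphate to mevalonate, carried the strongest signal. Its region (chr3:89458931-89459419) had 42.2 and 49.2 RP10M after 4-OHT, against 266 and 267 RP10M after EtOH. Both 4-OHT libraries lay far below both EtOH libraries, and the change was 5.75-fold (log2 -2.52, SE 0.15, edgeR adjusted p = 8.62e-62). Among all 4740 regions it ranked 119 by EtOH signal. Idi1 isomerises isopentenyl diphosphate. Its region (chr13:8885669-8885846) had 6.55 and 2.41 RP10M after 4-OHT, against 19.3 and 11.9 RP10M after EtOH, 3.66-fold lower (log2 -1.87, SE 0.46, edgeR adjusted p = 8.56e-05). The groups did not overlap, but the libraries of each group differed widely and held few reads, 9 and 5 after 4-OHT and 26 and 21 after EtOH.

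Among the enzymes from squalene to cholesterol, Lss, which closes the sterol rings, had 32 and 33.3 RP10M after 4-OHT, against 133 and 141 RP10M after EtOH (chr10:76531412-76531946). Replicates were close and the fall was 4.18-fold (log2 -2.06, SE 0.18, edgeR adjusted p = 1.69e-28). Its region ranked 297 by EtOH signal. Cyp51, the lanosterol demethylase, had 6.55 and 7.24 RP10M after 4-OHT, against 18.5 and 19.3 RP10M after EtOH (chr5:4104548-4104784). This was 2.70-fold lower, with no overlap (edgeR adjusted p = 3.80e-04). Sc5d, a desaturase of a late step whose E-box is printed above, had 3.64 and 4.83 RP10M after 4-OHT, against 23.0 and 21.5 RP10M after EtOH (chr9:42264278-42264547). The fall there was 5.04-fold, second only to Pmvk among the 14 (edgeR adjusted p = 7.70e-08), and rested on 5 and 10 reads after 4-OHT and 31 and 38 after EtOH.

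Sensors and factors of the SREBP system held 5 of the 14 regions. At the start of Insig1, which retains SCAP when sterol is ample, signal was 21.1 and 26.6 RP10M after 4-OHT, against 85.9 and 76.6 RP10M after EtOH (chr5:28071003-28071481). Its second region, inside the gene (chr5:28071738-28072269), had 16.7 and 13.0 RP10M after 4-OHT, against 61.5 and 62.4 RP10M after EtOH. The folds were 3.33 and 4.23, with adjusted p of 8.30e-14 and 2.43e-13 (edgeR), and no library of one group reached the other. Both regions belong to the same gene and are not separate evidence. Scap, the escort of the SREBP precursors, had 13.1 and 8.21 RP10M after 4-OHT, against 48.1 and 40.8 RP10M after EtOH (chr9:110333180-110333454), 4.29-fold lower (log2 -2.10, edgeR adjusted p = 1.39e-10). With the change of the inputs subtracted, the log2 change of Scap was -1.01 and its call was lost (adjusted p = 0.333). Srebf2, the gene of SREBP2, had 4.37 and 8.69 RP10M after 4-OHT, against 15.6 and 22.1 RP10M after EtOH (chr15:82147153-82147357), 2.75-fold lower. The groups did not overlap, but the spread was wide, and the adjusted p of 2.82e-04 (edgeR) became 0.0532 without EtOH replicate 2. Insig2, the paralog of Insig1, had 3.64 and 5.79 RP10M after 4-OHT, against 19.3 and 13.6 RP10M after EtOH (chr1:121327973-121328116), 3.26-fold lower (edgeR adjusted p = 1.70e-04). Srebf1 had no region within 10 kb of its counted start.

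Abca1, which moves cholesterol out of the cell, had 5.09 and 4.83 RP10M after 4-OHT, against 20.0 and 17.0 RP10M after EtOH (chr4:53159984-53160173), 3.68-fold lower (edgeR adjusted p = 2.17e-05). Lpin1, a phosphatidate phosphatase, had 5.09 and 7.72 RP10M after 4-OHT, against 14.1 and 17.0 RP10M after EtOH at its counted start (chr12:16589725-16589889). Its upstream region (chr12:16591514-16591607) had 4.37 and 3.38 RP10M after 4-OHT, against 14.1 and 10.2 RP10M after EtOH. The groups overlapped at neither Lpin1 region, and the falls were 2.35-fold and 3.11-fold (edgeR adjusted p = 0.00370 and 9.98e-04). At the start of Lpin1 the adjusted p was 0.0801 without EtOH replicate 2. Fasn, the fatty acid synthase, had 10.2 and 4.35 RP10M after 4-OHT, against 16.3 and 13.6 RP10M after EtOH (chr11:120823991-120824175), the smallest fall of the 14 at 2.17-fold (edgeR adjusted p = 0.00901). This call was lost without 4-OHT replicate 2 (adjusted p = 0.248) and without EtOH replicate 1 (0.0890). With the change of the inputs subtracted, Fasn turned to a log2 change of 0.27. Under that subtraction 7 of the 14 regions were called lower, beside 50.5% of all regions. Besides Scap and Fasn, the calls at Cyp51 (edgeR adjusted p = 0.0966), Abca1 (0.106), Insig2 (0.0680) and Lpin1 (0.0950 at the start, 0.0547 upstream) were lost under it. DESeq2 with library totals lost the calls at Fasn (adjusted p = 0.144) and at Lpin1 (0.0854 at the start, 0.0586 upstream). At 6 regions, those of Pmvk, Lss, Insig1 (both), Sc5d and Idi1, the call held under every alternative tried other than the scalings set on the regions.

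**Figure D2:**
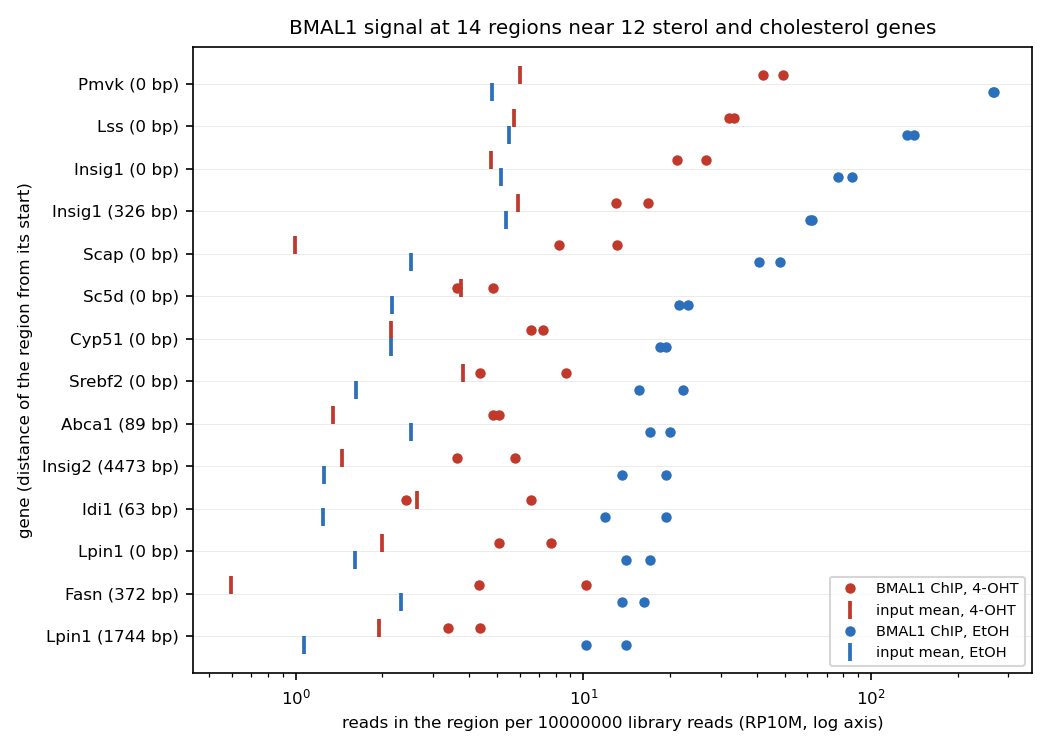
BMAL1 signal at the 14 regions, in reads per 10000000 library reads on a log axis, with each ChIP library as a point (4-OHT red, above; EtOH blue, below) and the mean of the 2 inputs of each treatment as a bar mark. In every row both red points lie left of both blue points, from Pmvk (42.2 and 49.2 after 4-OHT, 266 and 267 after EtOH) to the upstream Lpin1 region (4.37 and 3.38 after 4-OHT, 14.1 and 10.2 after EtOH).

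Signal remained above input after 4-OHT at 10 of the 14 regions, while 80.6% of all regions were called above input by the same test. The inputs had a median of 2.80 and 2.69 RP10M over the 14 regions in the 4-OHT libraries and 2.55 and 2.30 RP10M in the EtOH libraries. At Scap the 4-OHT ChIP signal was 8.96-fold above input, at Pmvk 8.36-fold, at Fasn 7.36-fold, at Lss 5.94-fold and at the start of Insig1 5.0-fold (edgeR adjusted p between 6.67e-16 and 2.37e-04). The input mean after 4-OHT was 0.998 RP10M at Scap and 0.598 RP10M at Fasn, so those ratios rest on few input reads. Sc5d (1.31-fold, edgeR adjusted p = 0.497), Idi1 (1.68-fold, 0.267), Srebf2 (1.85-fold, 0.0869) and the upstream Lpin1 region (2.12-fold, 0.125) were not distinguishable from input at this depth. With TMM factors over the regions, 1 of the 14 was called above input and their median log2 over input was -0.38, against 1.498 with library totals. Without replicate 2 of the 4-OHT ChIP and input, 6 regions were called above input, and without replicate 1, 9 were. Between the 4-OHT and EtOH inputs, 0 of the 14 regions and 0 of all 4740 (0%) were called by edgeR. At an edgeR p below 0.05 before adjustment there were 218 regions in all and 1 of the 14, that of Srebf2. Its input was 4.01 and 3.59 RP10M after 4-OHT, against 2.18 and 1.06 RP10M after EtOH.

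**Figure D3:**
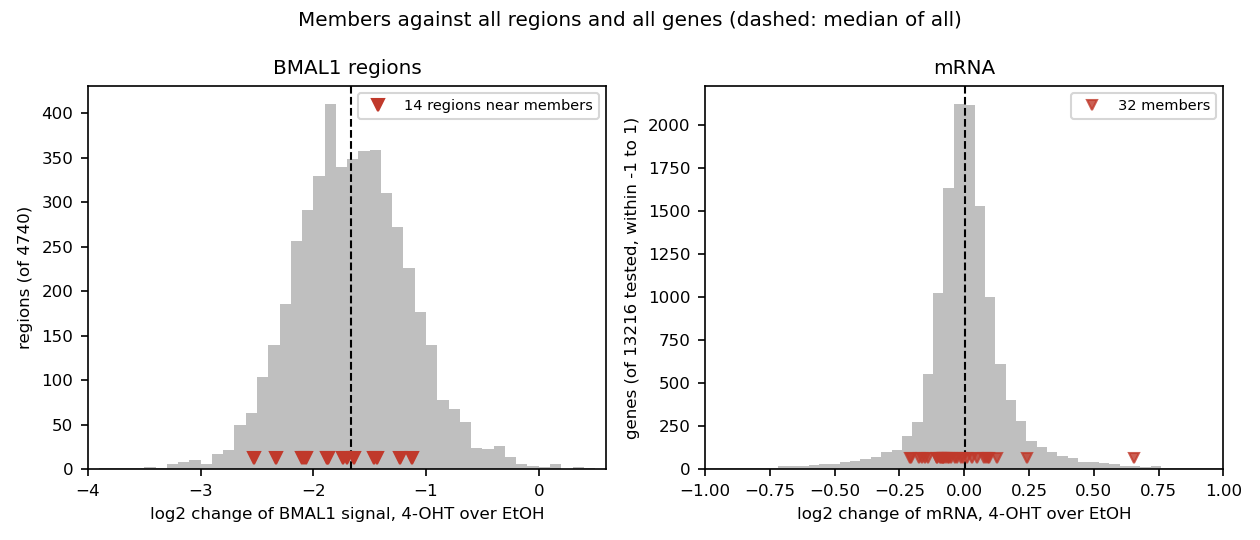
Distribution of log2 changes, 4-OHT over EtOH, of all 4740 BMAL1 regions (left) and of the genes tested for mRNA (right, those between -1 and 1), with the 14 regions and the 32 genes as red triangles and the median of all as a dashed line. The triangles of the regions lie between -2.52 and -1.12 on both sides of the median of -1.66, and those of the genes between -0.21 and 0.65.

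All 32 genes passed the expression filter for mRNA (13216 genes tested). Per length, the median level of the 32 was 29.1 RPKM (reads per kilobase of exon and per 1000000 counted reads), against 11.2 RPKM over all genes tested. Hmgcs1, which makes HMG-CoA, was highest at 150 RPKM averaged over the 4 libraries. Npc2, which carries cholesterol out of lysosomes, followed with 122 RPKM and Msmo1, a methylsterol oxidase, with 112 RPKM. At the other end of the order of levels stood Ch25h with 3.17 RPKM, Abca1 with 1.17 RPKM and Abcg1 with 0.211 RPKM. Neighbours in this order overlapped in their 4 values in 18 of 31 pairs. Msmo1 overlapped both Npc2 and Srebf2 (110 RPKM) and could not be ordered against either beyond their spread. Npc2 (119 to 126 RPKM) lay above Srebf2 (103 to 117 RPKM), and the lowest 3 genes were distinct from each other.

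One of the 32 genes was called higher in mRNA after 4-OHT and none lower, where 0.802% of all genes tested were called higher and 1.63% lower (edgeR, adjusted p below 0.05). At an unadjusted edgeR p below 0.05, 2 genes were higher (Ch25h and Abca1) and 3 lower (Sqle, Msmo1 and Idi1), where 5.04% of all genes tested were higher and 5.02% lower. DESeq2 called Ch25h higher too, and called 1 lower (Sqle), beside 1.35% of the genes to which it gave an adjusted p. The gene that rose was Ch25h, whose enzyme turns cholesterol into an oxysterol that holds back SREBP processing. It had 4.71 and 5.79 CPM after 4-OHT, against 3.74 and 2.93 CPM after EtOH, from 328 and 524 reads after 4-OHT and 266 and 175 reads after EtOH. Both 4-OHT libraries lay above both EtOH libraries, with a 1.57-fold rise (log2 0.65, SE 0.13, edgeR adjusted p = 0.00101, DESeq2 adjusted p = 0.0423). The call was lost without 4-OHT replicate 2 (log2 0.49, adjusted p = 0.108) and without EtOH replicate 2 (log2 0.50, adjusted p = 0.0823). No BMAL1 region lay closer than 220514 bp to its start.

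**Figure D4:**
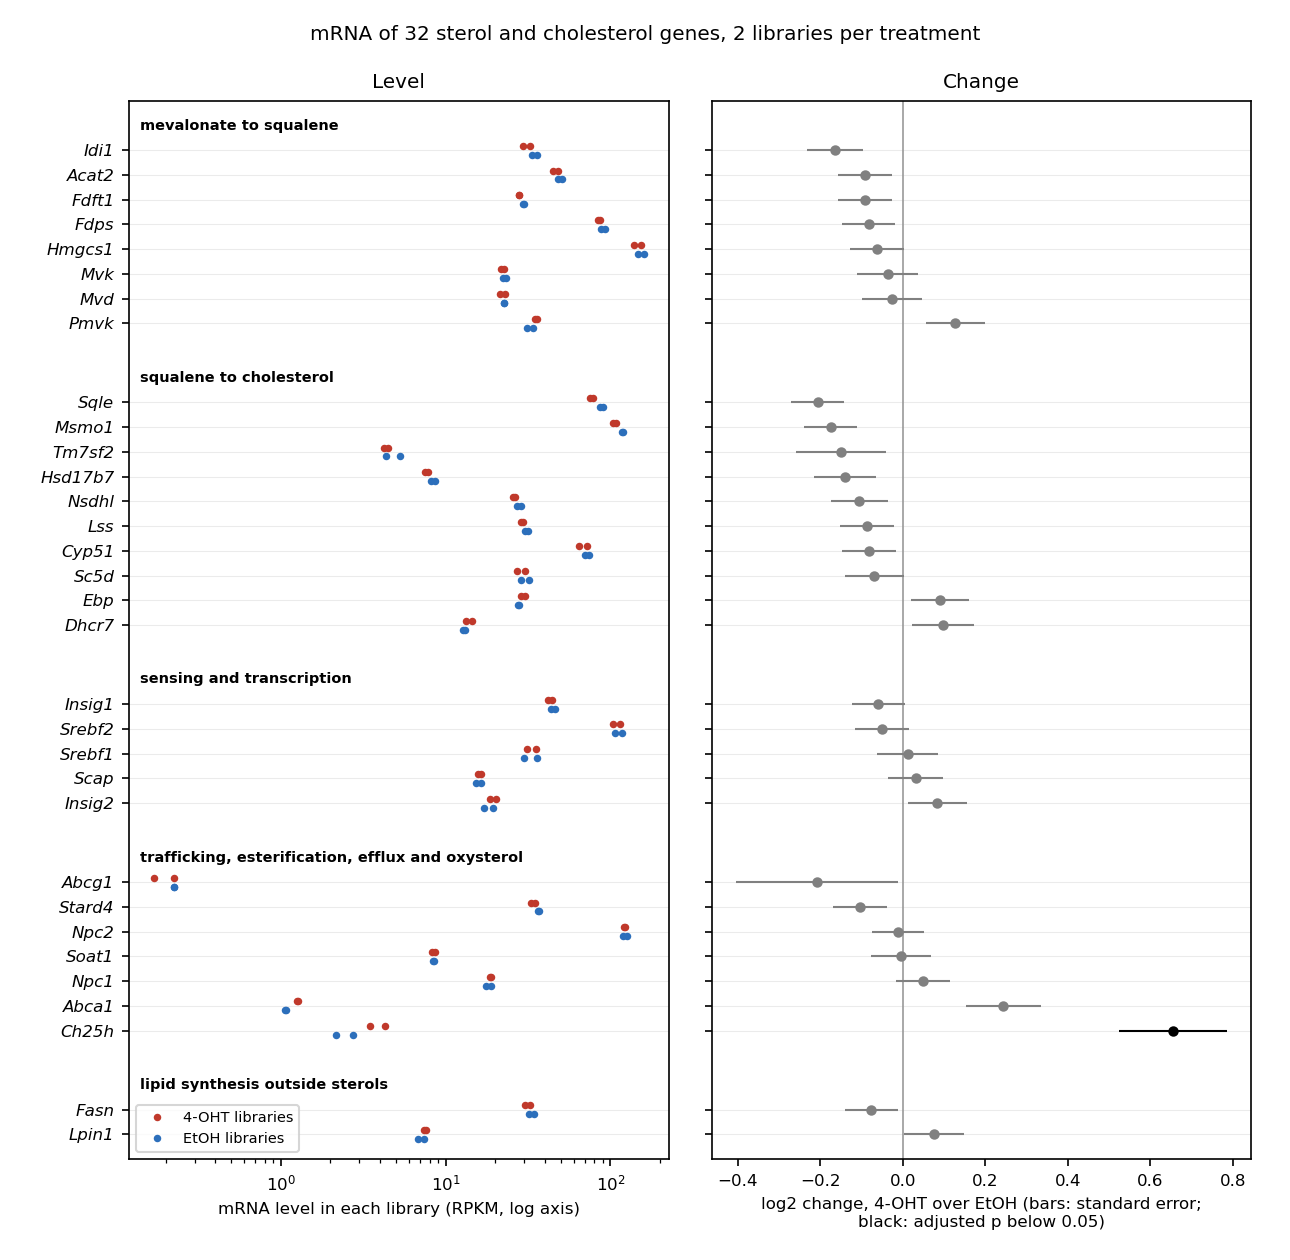
mRNA of the 32 genes grouped by role, as RPKM in each library on a log axis (left; 4-OHT red, above, and EtOH blue, below) and as log2 change, 4-OHT over EtOH, with its standard error (right; black where the edgeR adjusted p was below 0.05). Only Ch25h, at 0.65, is black, and the synthesis enzymes lie mostly left of 0 by no more than 0.21.

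The 18 sterol synthesis enzymes had small changes, none of them called by edgeR, and 15 of the 18 log2 changes were negative. Their median was -0.08, beside 0.00 for all genes tested, of which 49.1% were negative. In 9 of the 18 the 4-OHT libraries were both below the EtOH libraries and in 3 both above, where 18.3% and 18.7% of all genes tested did so. Summed over the 18, mRNA was 2100 and 1994 CPM after 4-OHT, against 2144 and 2218 CPM after EtOH, without overlap but with the smallest exact permutation p the design allows, 0.333. Enzymes of one route share regulators, so these genes are not independent of each other. In simulated data, where every gene had the same fixed spread between libraries, the same test recovered 9.0% of log2 changes of 0.3. That spread was not estimated from these libraries, so the share is not the power for these enzymes. The lack of a call at changes this small does not show that there was no change.

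Sqle, squalene epoxidase and a controlling step of the route, had 214 and 206 CPM after 4-OHT, against 238 and 247 CPM after EtOH. The groups did not overlap, and the log2 change of -0.21 (SE 0.06) had an adjusted p of 0.0822 by edgeR and 0.0445 by DESeq2. Msmo1 had 197 and 189 CPM after 4-OHT, against 216 and 219 CPM after EtOH (log2 -0.17, SE 0.06, edgeR adjusted p = 0.206). Idi1 had 93.3 and 84.1 CPM after 4-OHT, against 96.4 and 102 CPM after EtOH (log2 -0.16, SE 0.07, edgeR adjusted p = 0.321). Hsd17b7, a ketosteroid reductase of the demethylation steps, had 35.6 and 34.3 CPM after 4-OHT, against 37.3 and 39.7 CPM after EtOH (log2 -0.14, SE 0.07, edgeR adjusted p = 0.552). In all 4 of these genes both 4-OHT libraries lay below both EtOH libraries. Hmgcs1, the most abundant, had 506 and 458 CPM after 4-OHT, against 482 and 524 CPM after EtOH, and the groups overlapped (log2 -0.06, SE 0.07).

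None of the 5 enzymes with a BMAL1 region was called in mRNA by edgeR or DESeq2, Idi1 above included. Pmvk, with the deepest fall in BMAL1 signal, had 52.6 and 54.3 CPM after 4-OHT, against 47.1 and 50.8 CPM after EtOH, and its change was positive (log2 0.13, SE 0.07, edgeR adjusted p = 0.588). Lss had 89.5 and 91.4 CPM after 4-OHT, against 98.2 and 93.8 CPM after EtOH (log2 -0.09, SE 0.07, edgeR adjusted p = 0.770). Both pairs were free of overlap and neither change was called. Cyp51 had 314 and 280 CPM after 4-OHT, against 305 and 323 CPM after EtOH (log2 -0.08, SE 0.07). Sc5d had 68.5 and 61.3 CPM after 4-OHT, against 64.1 and 72.1 CPM after EtOH (log2 -0.07, SE 0.07). Both overlapped between treatments.

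The 5 sensors and factors had log2 changes between -0.06 and 0.08, and 0 of them passed the test in either direction. Insig1, itself a target of SREBP, had 117 and 111 CPM after 4-OHT, against 115 and 123 CPM after EtOH. Insig2 had 59.7 and 55.2 CPM after 4-OHT, against 57.4 and 50.9 CPM after EtOH. Scap had 67.8 and 70.8 CPM after 4-OHT, against 69.9 and 65.8 CPM after EtOH. In each of them the groups overlapped, and the same was true of the SREBP2 gene. Srebf2 had 469 and 520 CPM after 4-OHT, against 533 and 491 CPM after EtOH (log2 -0.05, SE 0.07, edgeR adjusted p = 0.899).

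Among the genes that move, store or efflux cholesterol, Abca1 had the next largest change after Ch25h. It had 12.9 and 13.1 CPM after 4-OHT, against 11.1 and 10.9 CPM after EtOH, with close replicates and no overlap (log2 0.24, SE 0.09, edgeR adjusted p = 0.222, DESeq2 adjusted p = 0.604). Of the 4 members with CACGTG in a promoter that overlaps a region, it alone had mRNA groups that did not overlap. Among all genes tested, 18.7% had both 4-OHT libraries above both EtOH libraries and 18.3% below. A link between the E-box and the mRNA change was not tested. Npc2 had 394 and 400 CPM after 4-OHT, against 412 and 389 CPM after EtOH (log2 -0.01, SE 0.06). Outside sterol synthesis, Lpin1 had 43.4 and 42.4 CPM after 4-OHT, against 42.4 and 39.0 CPM after EtOH (log2 0.08, SE 0.07). Fasn had 303 and 324 CPM after 4-OHT, against 341 and 319 CPM after EtOH (log2 -0.08, SE 0.06). Both Lpin1 values after 4-OHT lay above both after EtOH, the closest pair being equal at the digits given, while those of Fasn overlapped, and neither change was called. The remaining 14 genes (Mvk, Mvd, Fdps, Fdft1, Tm7sf2, Nsdhl, Ebp, Dhcr7, Acat2, Srebf1, Stard4, Soat1, Abcg1 and Npc1) had log2 changes from -0.21 to 0.10, 10 negative and 4 positive, with edgeR adjusted p from 0.670 to 0.994. The most negative of them, Abcg1, an efflux transporter, had 1.31 and 0.984 CPM after 4-OHT, against 1.31 and 1.30 CPM after EtOH, so the difference lies in 1 of the 2 4-OHT libraries.

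The 12 genes with a region had a median mRNA log2 change of -0.05 and 0 calls. The 20 genes without one had a median of -0.07 and 1 call. At all 12, BMAL1 signal fell between 2.17-fold and 5.75-fold, while the mRNA log2 changes lay between -0.16 and 0.24, 7 of them negative and 5 positive. The authors' deposited table of their own DESeq2 comparison, with 3317 rows, holds 12 of the 32 genes, the same 12 that have a region. None had an adjusted p under 0.05 and the lowest, for Idi1, was 0.497. Ch25h and Sqle have no row there, so that comparison says nothing about their calls.

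**Figure D5:**
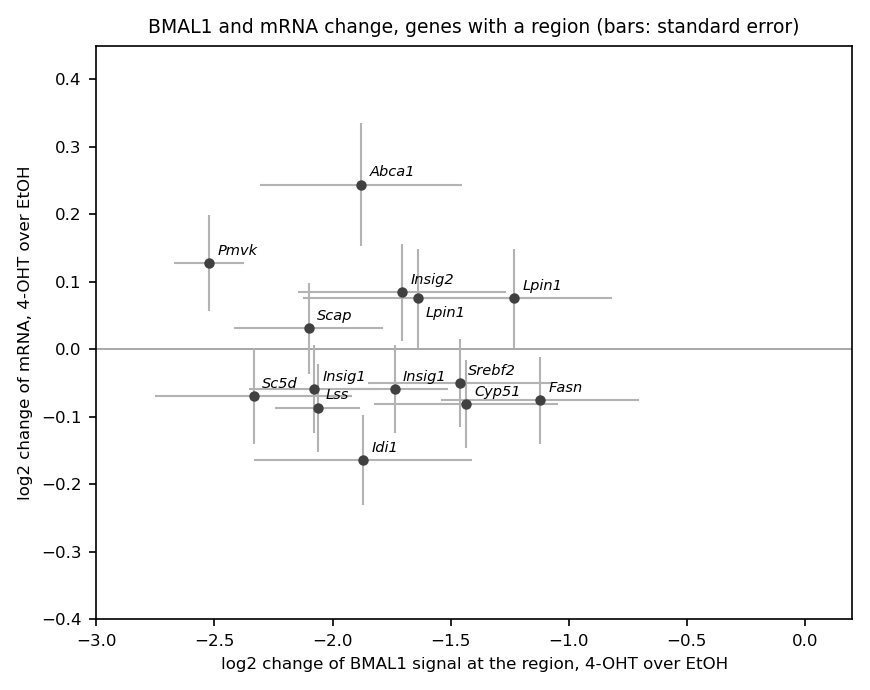
Log2 change of BMAL1 signal at each of the 14 regions (x) against the log2 change of the gene's mRNA (y), both 4-OHT over EtOH, with standard errors as bars. Insig1 and Lpin1 appear at each of their 2 regions. All points lie left of -1.1, and they spread on both sides of 0 in mRNA, from Idi1 at -0.16 to Abca1 at 0.24.

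Other genes of lipid and sterol metabolism were read from 4 further lists with 41 genes. Of these, 40 were tested, 0 called higher and 2 called lower by edgeR, where 0.802% of all genes tested were called higher and 1.63% lower. Among 10 lipogenic targets of SREBP, 1 was called lower. Elovl5, an elongase of polyunsaturated fatty acids, had 119 and 108 CPM after 4-OHT, against 145 and 157 CPM after EtOH, 1.33-fold lower, with no overlap (log2 -0.41, SE 0.07, edgeR adjusted p = 3.55e-05). Among 10 genes of uptake and transport, 1 was called lower. Vldlr, the very low density lipoprotein receptor, had 60.0 and 56.9 CPM after 4-OHT, against 82.6 and 75.8 CPM after EtOH, 1.36-fold lower, with no overlap (log2 -0.44, SE 0.07, edgeR adjusted p = 1.48e-05). Neither gene had a region within 10 kb, the nearest lying 104114 bp from Elovl5 and 40152 bp from Vldlr. None of the 12 genes of sterol sensing and SREBP processing was called, the largest change being in Nr1h3, an LXR gene, with 0.631 and 0.509 CPM after 4-OHT, against 0.450 and 0.535 CPM after EtOH. Of the 8 tested among 9 other isoprenoid and sterol enzymes, none was called. There the largest change was in Soat2, a cholesterol acyltransferase, with 0.646 and 0.873 CPM after 4-OHT, against 0.548 and 0.736 CPM after EtOH, and its groups overlapped.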

How the data were processed

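Per the file headers, the authors' deposited counts of reads over genes come from featureCounts v1.5.0-p1, run reverse-stranded on UCSC mm10 genes. No aligner is named in these sources. The authors deposited, per library, the count of reads in 4740 regions named as MACS2 peaks of the control, with the caller's fold ratio, −log10 p and q and score, which entered no test. A deposited signal table equals 5 plus RP10M, from which library totals followed. The authors' deposited DESeq2 table gives signal means, log2 changes, p-values and a score. The submitters' processing notes name bedtools 2.25.0, DESeq2 and mm10.

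Counts were tested with edgeR 4.0.16 (R 4.3.3, quasi-likelihood, Benjamini-Hochberg over all features). Genes used TMM factors and its expression filter, regions the library totals. DESeq2 1.42.0 was an alternative, beside other scalings and filters, a replicate block and each library left out. The fits were tested on simulated data with 200 changed features each. Every feature had the same fixed spread, not estimated from these libraries, and the changed ones were drawn from the more abundant features. The mRNA fit recovered 9.0% of log2 changes of 0.3 and 99.5% of those of 0.6. The ChIP fit recovered 100% of log2 changes of 1.5. That share holds for the more abundant simulated regions and is not the power for regions of few reads. RPKM used the deposited exon lengths.

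Per-library values are given for members with a region, those called in mRNA by either tool, the 6 with the lowest p and the 3 with the highest RPKM, and from the further lists for called genes and the largest change of each. Members and lists were chosen with earlier results of these data known. Older symbols and promoters came from RefSeq tables of GRCm38.p6. Distances leave out 133 genes annotated on several chromosomes or both strands. RP10M and reads are given per library without an error, and regions of few reads are imprecise.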

Additional observations from a re-analysis of the deposited data

How the results depend on the processing

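Scaling set on the regions ended most BMAL1 calls: 1 of 14 regions was lower under TMM factors and 1 under DESeq2 with its own size factors, which gave no adjusted p for 11. The log2 change then turned to 0.25 (TMM) and 0.26 (DESeq2) at Cyp51, 0.22 and 0.19 at Srebf2, 0.45 and 0.44 at the start of Lpin1, 0.034 and 0.066 at its upstream region, and 0.55 and 0.65 at Fasn. With the input change subtracted, 7 of 14 were lower and Fasn stood at 0.27. DESeq2 with library totals called 11 of 14. Leaving out each library in turn gave 12 to 14 regions called lower. For 4-OHT ChIP over input, TMM factors left 1 region above input and a median log2 of -0.38, with Insig1 (326 bp) at -0.55, Sc5d at -1.50, Cyp51 at -0.36, Srebf2 at -1.004, Abca1 at -0.56, Insig2 at -0.40, Idi1 at -1.13 and Lpin1 at -0.29 and -0.79. The cause was not tested beyond the construction of these scalings, which centre the regions on 0. Apart from the 50.5% called lower with the input change subtracted, shares over all regions are not given for these settings. The counts therefore describe the 14 regions only. Leaving out a replicate gave 6 to 9 regions above input, and Sc5d ranged from -0.39 to 0.83.

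In mRNA, members called higher ranged from 0 to 1 when each library was left out, and members called lower stayed at 0, while DESeq2 called 1 lower (Sqle). Small changes turned sign between libraries: Hmgcs1 ranged from -0.14 to 0.0096, Srebf2 from -0.13 to 0.022, Npc2 from -0.052 to 0.030, Sc5d from -0.15 to 0.018 and Scap from -0.010 to 0.076. Without TMM factors Npc2 stood at 0.0085. Deviations of same-numbered libraries from their own group means correlated at -0.168 in mRNA and 0.0218 in ChIP. This gives no sign that the numbers pair them. With the number as a block, 1 member was called higher and 0 lower, 14 regions were lower, 8 were above input, and Sc5d over input turned to -0.20. A crossed pairing of the numbers as a block, chosen after seeing the data, called 2 members higher and 3 lower. For both blocks the share of all genes or regions called is not given, so these counts describe the members only. Members with a region numbered 19 within 50 kb, 12 within 5 kb, 11 within 1 kb and 10 at a −log10 q of 5 or more. Signal at 9 of the 14 regions rests on 5 to 39 reads a library, which limits the precision of single folds.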
